A study of Mus musculus with 4 samples.

Results

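Early differentiating suprabasal keratinocytes were taken here as cells that had begun to express the spinous keratins Krt1 and Krt10 without yet reaching the level of the upper layers. Barcodes were kept when they detected 2000 genes or more and when less than 10% of their UMIs (unique molecular identifiers, the counted mRNA molecules) were mitochondrial, and the cells were then chosen by their measured Krt1 and Krt10, which together made up from 20 to under 100 of every 10000 UMIs. This window held 394 of 11221 kept cells, or 3.51%, out of 19789 barcodes in all. It contained 155 and 112 cells of the 2 Ctrl libraries and 53 and 74 cells of the 2 TKO libraries (replicates 1 and 2 in that order, here and throughout).

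The cells came from dorsal skin of mouse embryos labelled E16.5 (embryonic day), sorted as Epcam and α6 integrin double-positive cells and profiled with the 10x Genomics 3' v3 assay. Ctrl embryos were Suv39h1 f/f, Suv39h2-/-, Setdb1 f/f without Cre, and TKO embryos carried the same alleles together with K14CreERT2, a recombinase that is active in the presence of tamoxifen and is driven by the promoter of the basal keratin Krt14. All 4 embryos were exposed to tamoxifen, and all 4 lacked Suv39h2 in every cell, so the comparison is of the added deletion of Suv39h1 and Setdb1 in cells of the Krt14 lineage. The methods give 2 embryos per genotype, which makes 1 per library, and state that each group included both sexes, so the replicates differ in sex too. The study describes these TKO embryos as mosaic, so TKO sums can hold unrecombined cells. Its list of litters gives an earlier embryonic day for the single-cell litter than the labels do, and the age was not settled here.

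As background, the epidermis is renewed from a basal layer that expresses Krt5 and Krt14 and is anchored to the basement membrane by integrins and laminins. A cell that commits to differentiation leaves that layer, turns on Krt1 and Krt10 under Notch signalling and transcription factors such as Zfp750, stops dividing and later builds the cornified envelope and the lipid barrier. In the embryo some cells in the first suprabasal layer still divide. SUV39H1, SUV39H2 and SETDB1 are methyltransferases that deposit H3K9me3, a histone mark of silenced chromatin.

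The chosen cells carried both basal and suprabasal transcripts. Krt1 and Krt10, which chose the cells and are given with no test, were at 2367 and 2044 CPM (UMIs of the gene per 1000000 UMIs of the summed cells) for Krt1 in Ctrl and 1830 and 1995 CPM in TKO, and at 3056 and 3311 CPM for Krt10 in Ctrl and 4223 and 3229 CPM in TKO. The median of the Krt1 and Krt10 sum was 50.4 and 44.3 UMIs per 10000 in Ctrl cells and 55.1 and 43.9 in TKO cells, so the libraries sat at like positions in the window. The cells nearest to the lower limit lay at 19.8 to 19.99 outside it and at 20.01 to 20.2 inside it, and those nearest to the upper limit at 99.0 to 99.8 inside and 100.7 to 105.4 outside. In cells marked by fibroblast or immune genes, which should lack these keratins, the median of the sum was at most 2.0 UMIs per 10000 in any library.

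The other early markers placed the window between its neighbours. Cells with Krt1 and Krt10 under 20 and Krt5 and Krt14 of at least 50 UMIs per 10000, called low cells below, numbered 5743, and cells with Krt1 and Krt10 of at least 100, called high cells, numbered 1544. Krtdap, a secreted product of suprabasal keratinocytes, was at 1350 and 1531 CPM in Ctrl and 1611 and 1582 CPM in TKO window cells, against 307 to 654 CPM in low cells and 3156 to 3455 CPM in high cells. Notch3, a Notch receptor of suprabasal cells, was at 139 and 104 CPM in Ctrl and 133 and 152 CPM in TKO window cells, which was about its level in high cells (128 to 147 CPM) and above low cells (7.95 to 13.3 CPM). Zfp750, a transcription factor of terminal differentiation, was at 119 and 128 CPM in Ctrl and 168 and 135 CPM in TKO, close to high cells (156 to 182 CPM) and above low cells (15.3 to 23.3 CPM). Over the whole window Notch3 and Zfp750 thus lay nearer to the high-cell level than Krtdap did. Of the 18 genes of the early differentiation list, 14 rose stepwise from low to window to high cells in every library, and of the 15 genes of the basal keratin and adhesion list 12 fell stepwise. These are descriptions, since Krt1, Krt10, Krt5 and Krt14 defined the 3 sets.

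The window was not uniform. Krt5 and Krt14 together split its cells into 269 with at least 50 UMIs per 10000, 30 with 10 to under 50 and 95 with under 10, and the 95 cells made up 24.1% of the window. The Krt5/Krt14-high members numbered 100, 90, 33 and 46 and made up 64.5% and 80.4% of the Ctrl windows and 62.3% and 62.2% of the TKO windows. In 58.1% and 81.2% of Ctrl cells and 50.9% and 62.2% of TKO cells, Krt5 and Krt14 together exceeded Krt1 and Krt10.

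**Figure D1:**
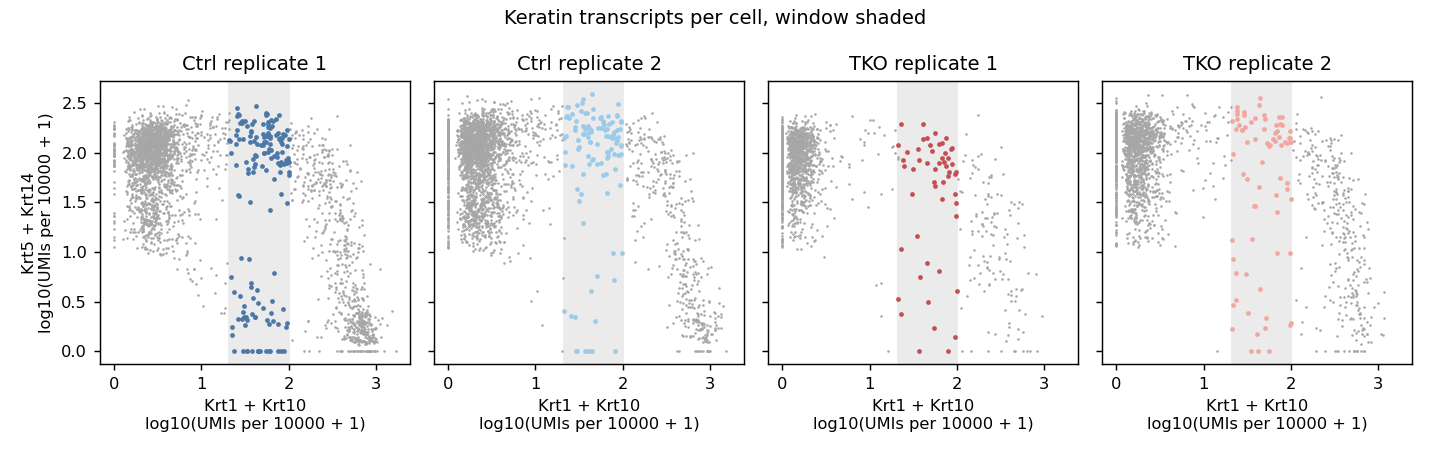
Krt1 plus Krt10 and Krt5 plus Krt14 per cell in the 4 libraries, both in UMIs per 10000 on log axes. Each point is a cell whose 4 keratins sum to at least 10. The shaded band is the window from 20 to under 100 of Krt1 and Krt10. In each library the band holds a dense group at high Krt5 and Krt14 and a smaller group at low Krt5 and Krt14. There 49, 16, 12 and 18 cells have under 10 of Krt5 and Krt14.

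The 95 cells with little Krt5 and Krt14 did not look like a step between low and high cells. Their mitochondrial share was at least 5% in 83 of 95 cells, against 11 of the 269 Krt5/Krt14-high members, with medians of 8.91% and 8.45% in Ctrl and 5.83% and 7.89% in TKO. Their median depth was 9383 and 6806 UMIs in Ctrl cells and 12820 and 10590 UMIs in TKO cells, against 19642 to 45150 in the Krt5/Krt14-high members. Malat1, a nuclear noncoding RNA, was at 26639 to 33162 CPM in them and at 5623 to 7903 CPM in the Krt5/Krt14-high members. Rpl13, a ribosomal protein gene, was at 416 and 1057 CPM in Ctrl and 2911 and 1570 CPM in TKO, below the 4063 to 5365 CPM of the Krt5/Krt14-high members. They held Notch3 at 234 to 462 CPM, so that in the Krt5/Krt14-high members alone Notch3 was lower, at 90.7 and 83.9 CPM in Ctrl and 112 and 118 CPM in TKO. They held Zfp750 at 86.1 to 134 CPM, but also Tmem45a at 229 to 595 CPM against at most 22.5 CPM in the Krt5/Krt14-high members, and Abca12, the lipid transporter of lamellar granules, at 528 to 924 CPM against 14.4 to 69.6 CPM. The label of an early suprabasal cell was therefore kept for the Krt5/Krt14-high members, while the 95 cells met the keratin rule with a transcript profile of their own that is left unnamed. The 30 members between these were not placed. They made up 4.61% ± 1.05 of the Ctrl and 14.3% ± 1.12 of the TKO windows (SD, n = 2 libraries each). What part RNA quality has in the 95 cells was not tested. Droplets that hold 2 cells can also carry both basal and suprabasal transcripts. The highest doublet scores of each library took in 29 of the 269 Krt5/Krt14-high members (10.8%), against 3.06% of low and 6.93% of high cells. The members' median depth was 24236 and 19642 UMIs in Ctrl, below high cells (30135 and 23595) and above low cells (21502 and 17295). In TKO it was 45150 and 37262 UMIs, above both high cells (38633 and 35561) and low cells (31228 and 28019). The part of doublets was not tested beyond leaving out the cells with the highest scores. After that, 335 genes in the window and 339 in the members differed between genotypes, against the 296 and 537 given below. The results below are for the whole window, with values for the Krt5/Krt14-high members added where named, a subset chosen after the values were seen.

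The window's share of kept cells was lower in both TKO libraries than in both Ctrl libraries. It held 4.85% (95% Clopper-Pearson interval 4.13 to 5.65) and 3.30% (2.73 to 3.96) of kept Ctrl cells and 2.45% (1.84 to 3.20) and 2.99% (2.36 to 3.74) of kept TKO cells. The means were 4.08% ± 1.09 and 2.72% ± 0.382 (SD, n = 2 libraries each), a difference of -1.35 percentage points with p = 0.333 by a two-sided exact permutation test, which is the smallest p that 2 against 2 allows. Among cells with Krt1 and Krt10 of at least 20, however, the window held 18.5% and 21.8% in Ctrl and 28.04% and 18.5% in TKO, a difference of 3.08 points in the other direction (exact permutation p = 1). The direction thus depended on the denominator. The intervals cover counting error only, and the sort on α6 integrin, a basal protein, can set any of these shares.

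Krt5 was at or above its low-cell level in 3 of 4 libraries. Its level was 4682 and 6103 CPM in Ctrl and 3807 and 5129 CPM in TKO, which was 110% and 130% of its level in Ctrl low cells and 95.4% and 109% in TKO low cells. In high cells Krt5 was at 1261 to 2005 CPM. Between genotypes the groups overlapped, with a log2 change (TKO against Ctrl) of -0.25 (SE 0.19, adjusted p = 0.50, edgeR quasi-likelihood test over all genes with Benjamini-Hochberg adjustment).

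Krt14, the partner of Krt5 in the basal filament, was kept at 86.4% and 99.2% of the low-cell level in Ctrl and 64.9% and 99.0% in TKO. Its level was 6555 and 8265 CPM in Ctrl and 4409 and 8719 CPM in TKO. The TKO libraries thus held both the lowest and the highest value, and the log2 change was -0.15 (SE 0.29, adjusted p = 0.81). The value rested on single libraries: it turned to 0.05 when Ctrl replicate 2 was left out and to 0.27 when TKO replicate 1 was, and it was -0.74 when TKO replicate 2 was, where it passed the test (adjusted p = 0.0063). In the Krt5/Krt14-high members the 2 keratins are given with no test, since they chose those cells: Krt5 was at 5592 and 6794 CPM in Ctrl and 4512 and 6218 CPM in TKO, and Krt14 at 7880 and 9282 CPM in Ctrl and 5527 and 10840 CPM in TKO.

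Krt15, another keratin of basal cells, did change. It was at 5201 and 8021 CPM in Ctrl and 1205 and 1757 CPM in TKO window cells, so that both TKO libraries lay below both Ctrl libraries, with a log2 change of -2.14 (SE 0.26, adjusted p = 0.011). It was lower in TKO at each stage, at 2025 and 2071 CPM against 4610 and 5504 CPM in low cells and at 316 and 524 CPM against 1884 and 2947 CPM in high cells. At an equal depth of 5000 UMIs per cell, a Krt15 UMI was seen in 75.2% and 89.8% of Ctrl window cells and in 64.2% and 67.1% of TKO window cells.

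**Figure D2:**
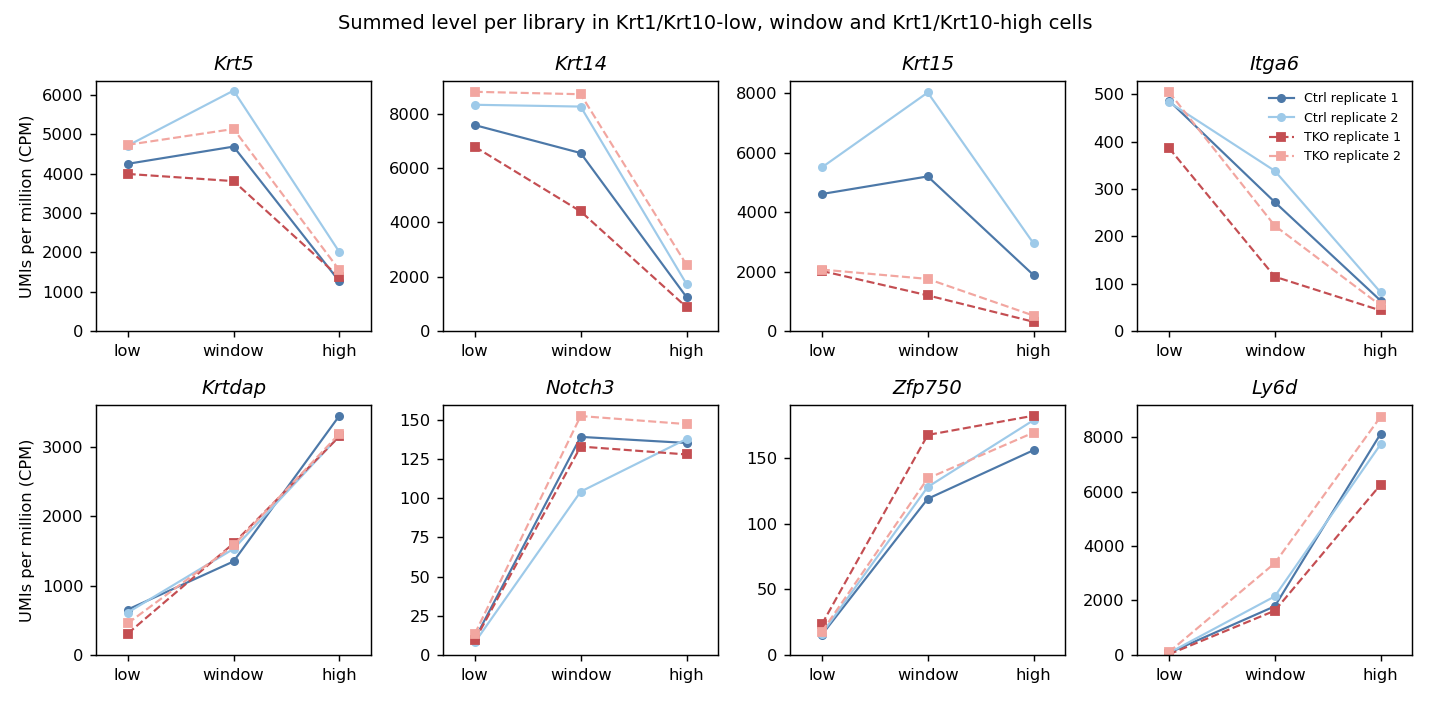
Levels of 8 genes (CPM, linear axis) in low, window and high cells, 1 line per library, Ctrl and TKO in different colours. Krt5 and Krt14 are at 64.9% to 130% of their low-cell level in window cells and drop in high cells, Krt15 is lower in both TKO libraries at each stage, and Krtdap, Notch3, Zfp750 and Ly6d rise into the window.

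Of the basal keratin and adhesion list, all 15 genes were tested and 2 fell, Krt15 and Lama3, against 1.23% of all tested genes that fell. Lama3, the α chain of laminin-332 in the basement membrane, was at 185 and 159 CPM in Ctrl and 73.9 and 91.1 CPM in TKO (log2 change -1.04, SE 0.19, adjusted p = 0.037). All 15 estimates were negative, with a median log2 change of -0.67 beside -0.01 over all tested genes. Both TKO libraries lay below both Ctrl libraries for 12 of the 15, against 26.7% of all tested genes. Col17a1, a hemidesmosome collagen, was among them at 209 and 194 CPM in Ctrl and 57.5 and 112 CPM in TKO (adjusted p = 0.082). DESeq2 called 4 of the 15 as lower, Krt15, Lama3, Col17a1 and Dst, a linker of the hemidesmosome. Itga6, the α6 integrin on which the cells were sorted, was at 272 and 338 CPM in Ctrl and 115 and 223 CPM in TKO (log2 change -0.83, SE 0.31, adjusted p = 0.20).

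Many window cells still expressed cell cycle genes. A cell was counted as cycling when it held a UMI of Mki67, Top2a or Cdk1, which mark proliferation, chromosome decatenation and mitotic entry, after each cell was thinned to 5000 UMIs. This left out 2, 4, 0 and 1 shallower cells. The cycling share was 34.0% (52 of 153 cells, 95% Clopper-Pearson interval 26.5 to 42.1) and 43.5% (47 of 108, 34.0 to 53.4) in Ctrl and 50.9% (27 of 53, 36.8 to 64.9) and 42.5% (31 of 73, 31.0 to 54.6) in TKO. The groups overlapped, with means of 38.8% ± 6.74 and 46.7% ± 5.99 (SD, n = 2), a difference of 7.95 points and p = 0.667 by a two-sided exact permutation test. In every library the window lay between low cells (54.1% and 49.2% in Ctrl, 71.2% and 64.6% in TKO) and high cells (17.6% and 17.8% in Ctrl, 26.5% and 23.3% in TKO). Without thinning the share was 54.8% and 56.2% in Ctrl and 71.7% and 60.8% in TKO, where TKO cells also had more UMIs (median 31523 and 29783 against 20060 and 17277).

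The cycling cells were mostly Krt5/Krt14-high members. Among these the share was 44.0% and 49.4% in Ctrl and 72.7% and 58.7% in TKO, so that the groups did not overlap (difference 19.0 points, exact permutation p = 0.333, the smallest possible). Among the 95 members under 10 UMIs per 10000 of Krt5 and Krt14 it was 14.9%, 7.69%, 8.33% and 11.1%. Under a stricter criterion, UMIs of at least 2 of the 3 genes, the Krt5/Krt14-high groups overlapped, with means of 30.5% ± 9.25 in Ctrl and 39.5% ± 12.8 in TKO (SD, n = 2, exact permutation p = 0.667), and so did the whole window, at 17.0% and 32.4% in Ctrl and 34.0% and 21.9% in TKO.

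**Figure D3:**
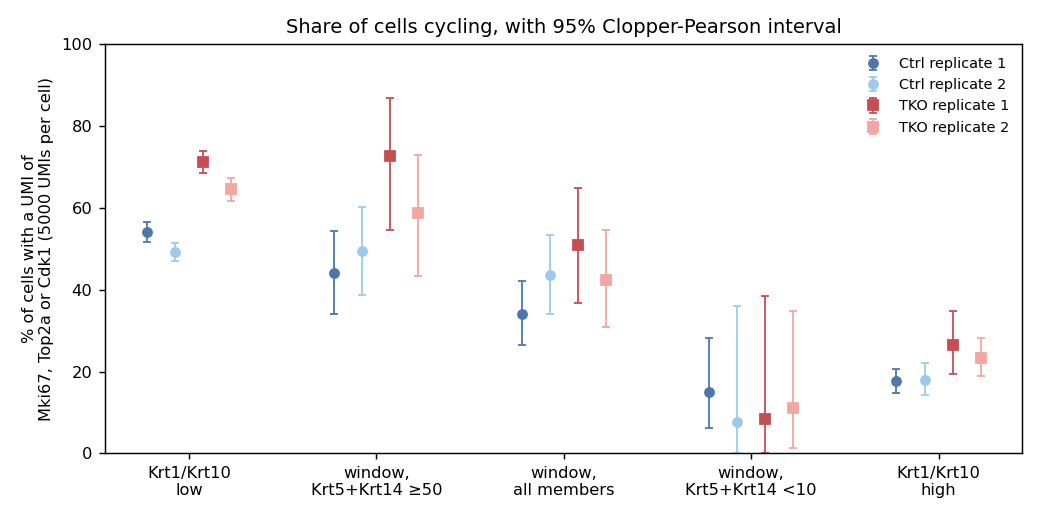
Share of cells (percent) with a UMI of Mki67, Top2a or Cdk1 at 5000 UMIs per cell, for low cells, window cells, the window's members with at least 50 or under 10 Krt5 and Krt14 UMIs per 10000, and high cells; points are libraries and bars their 95% Clopper-Pearson intervals. The window lies between low and high cells in each library, and its Krt5/Krt14-high members reach 44.0% to 72.7%.

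Replication and mitosis genes were then counted per cell, with no test between the 2 lists. At the same depth, at least 5 genes of the DNA replication list were seen in 28.8% and 28.7% of Ctrl and 34.0% and 26.0% of TKO window cells, which was below low cells (54.4% to 73.4%) and above high cells (4.91% to 8.82%). At least 5 genes of the mitosis list were seen in 22.9% and 35.2% of Ctrl and 49.1% and 39.7% of TKO window cells, so that the groups did not overlap (exact permutation p = 0.333, the smallest possible). In low cells this share was 38.5% and 34.2% in Ctrl and 62.7% and 54.6% in TKO. Of the 24 replication genes 22 fell stepwise from low to window to high cells in all 4 libraries, and of the 24 mitosis genes 7 did. In the fit over all genes, none of the 24 replication genes (median log2 change 0.19) and none of the 24 mitosis genes (median 0.39, 22 positive) passed the edgeR test between genotypes. At an unadjusted p under 0.05, 3 replication and 3 mitosis genes were higher in TKO, and DESeq2 called 0 in either list. In the Krt5/Krt14-high members 1 of the 24 mitosis genes rose (median 0.45), where 2.72% of all tested genes rose. This was Ccnb2, a mitotic cyclin, at 41.2 and 57.8 CPM in Ctrl and 118 and 91.1 CPM in TKO (log2 change 1.08, SE 0.21, adjusted p = 0.024).

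Summed over the window, 296 of 11122 tested genes (2.66%) differed between TKO and Ctrl at an adjusted p under 0.05, of which 159 (1.43%) were higher and 137 (1.23%) lower in TKO. The count rested on the Ctrl libraries: leaving out 1 of them cut it to 5 (replicate 1 out) or 45 (replicate 2 out), whereas leaving out a TKO library raised it to 661 (replicate 1 out) or 825 (replicate 2 out). Of the 20 genes on the lists below that passed the test, 1 still passed when Ctrl replicate 1 was left out (Gria3) and 4 when Ctrl replicate 2 was (Krt15, Hopx, Sprr1b and Gria3), with none turned in direction. It was 106, with 67.0% rather than 53.7% higher in TKO, without the cells that held at least 5 UMIs per 10000 of hair follicle genes. Such cells were 40.6% and 54.5% of the Ctrl and 24.5% and 20.3% of the TKO window, but the same limit took 92.2% to 97.2% of low cells, so it does not mark follicle cells alone. Among the Krt5/Krt14-high members 537 of 10479 genes (5.12%) passed the test, 285 higher (2.72%) and 252 lower (2.4%) in TKO, and that count ranged from 266, with Ctrl replicate 1 left out, to 1112, with TKO replicate 2 left out. These 537 held 264 of the 296 window genes (89.2% of the window's and 49.2% of the members' calls), each in the same direction. In sums of this kind, fewer cells of a type and less RNA per cell cannot be told apart.

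Of the early differentiation list 13 of 18 genes were tested and 2 rose, with a median log2 change of 0.31. For this and the lists that follow, 1.43% of all tested genes rose and 1.23% fell in the window. Sbsn, a secreted suprabasal protein, was at 71.3 and 59.0 CPM in Ctrl and 219 and 219 CPM in TKO (log2 change 1.77, SE 0.18, adjusted p = 0.0053). Lypd3, a membrane-anchored protein of suprabasal cells, was at 83.5 and 88.7 CPM in Ctrl and 153 and 184 CPM in TKO (log2 change 0.99, SE 0.18, adjusted p = 0.038). Dmkn, which lies beside Sbsn and is also secreted, was at 1383 and 1647 CPM in Ctrl and 2517 and 2350 CPM in TKO and missed the test in the window (adjusted p = 0.051) but passed it in the Krt5/Krt14-high members (adjusted p = 0.027). In each of these 3 genes both TKO libraries lay above both Ctrl libraries, as they did for 25.3% of all tested genes and for 5 of the 13 tested here. The defining markers Krtdap, Notch3 and Zfp750 did not pass the test.

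Of the barrier lipid list 15 genes were tested and 1 rose, with a median log2 change of 0.44. This was Elovl4, which elongates the very long fatty acids of the skin barrier, at 92.8 and 74.5 CPM in Ctrl and 284 and 222 CPM in TKO (log2 change 1.61, SE 0.20, adjusted p = 0.011). In the Krt5/Krt14-high members, where 2.72% of all tested genes rose, 4 of the 11 tested genes of the list did (median 0.69): Elovl4, the lipid transporter Abca12, the fatty acid hydroxylase Cyp4f39 and the glucosylceramide synthase Ugcg. Of the cornified envelope list 8 genes were tested and 2 rose, with a median of 0.95. Sprr1b, a cross-linked envelope protein, was at 5.51 and 6.69 CPM in Ctrl and 275 and 172 CPM in TKO (log2 change 5.22, SE 0.31, adjusted p = 0.0013), but 75.5% of its UMIs in TKO replicate 1 came from 2 cells, and in the Krt5/Krt14-high members it was at 1.67 and 0.474 CPM in Ctrl and 12.8 and 160 CPM in TKO. Spink5, a protease inhibitor that restrains shedding, was at 3.86 and 2.93 CPM in Ctrl and 12.9 and 12.8 CPM in TKO (log2 change 1.90, SE 0.39, adjusted p = 0.0497), a call that DESeq2 did not make. In the Krt5/Krt14-high members 3 of 7 tested genes of this list rose, Sprr1b, Spink5 and the cross-linking enzyme Tgm1. None of the 20 tested desmosome and junction genes passed by edgeR or DESeq2 (median -0.10, with 5 at an unadjusted p under 0.05), and Dsp, the plaque protein desmoplakin, was at 1854 and 1521 CPM in Ctrl and 1780 and 2096 CPM in TKO.

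Among the transcription factors 24 of 25 were tested and 1 rose, with a median log2 change of -0.24. Hopx, a homeodomain cofactor of differentiating keratinocytes, was at 7.71 and 18.0 CPM in Ctrl and 85.3 and 101 CPM in TKO (log2 change 2.93, SE 0.37, adjusted p = 0.011). Trp63, the master regulator of the basal layer, was at 701 and 567 CPM in Ctrl and 220 and 357 CPM in TKO, with an adjusted p of 0.066 in the window and 0.029 in the Krt5/Krt14-high members. In those members 1 of 24 factors rose and 4 fell (median -0.37), Trp63 and the bZIP factor Maf among them, against 2.4% of all tested genes that fell. Klf4, a factor for barrier formation, was at 382 and 439 CPM in Ctrl and 290 and 385 CPM in TKO (log2 change -0.26) and did not pass. DESeq2 also called Trp63 and Id3, an inhibitor of basic helix-loop-helix factors, as lower. In the Notch pathway 15 of 20 genes were tested and 1 fell, with a median of -0.01. Maml2, a coactivator of the Notch transcription complex, was at 430 and 446 CPM in Ctrl and 195 and 227 CPM in TKO (log2 change -1.03, SE 0.17, adjusted p = 0.026). The receptor Notch1 was at 442 and 421 CPM in Ctrl and 471 and 392 CPM in TKO (log2 change 0.02), and the feedback target Nrarp at 75.5 and 104 CPM in Ctrl and 209 and 147 CPM in TKO (adjusted p = 0.079, and 0.026 in the Krt5/Krt14-high members).

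Of 13 tested cell cycle inhibitors and related genes 2 rose, with a median log2 change of -0.01. Cdkn1a, which encodes the p21 inhibitor of cyclin-dependent kinases, was at 134 and 192 CPM in Ctrl and 456 and 333 CPM in TKO (log2 change 1.29, SE 0.24, adjusted p = 0.041). Ccng1, a cyclin induced by p53, was at 23.7 and 21.8 CPM in Ctrl and 117 and 91.1 CPM in TKO (log2 change 2.20, SE 0.21, adjusted p = 0.0045). Both also rose in the Krt5/Krt14-high members, where Btg1, an antiproliferative gene, fell. Of the stress and simple-epithelium keratins 5 were tested and Krt6a rose, while Krt17 at 217 and 400 CPM in Ctrl and 457 and 804 CPM in TKO did not pass in the window (adjusted p = 0.17). Krt17 and Krt7 rose in the Krt5/Krt14-high members (adjusted p = 0.045 and 0.048), where Krt6a missed the test. None of 14 immediate early genes passed by edgeR or DESeq2 (median -0.79, with 2 under 0.05 before adjustment), while Ctrl replicate 2 was highest in each of the 14, for example with Fos at 1130 CPM against 245 to 456 CPM elsewhere.

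Of the 17 hair follicle genes 13 were tested and 4 fell in TKO window cells, with a median log2 change of -1.32 and 12 negative estimates, and both TKO libraries lay below both Ctrl libraries for 10, against 26.7% of all tested genes. In the Krt5/Krt14-high members 6 of 10 tested genes fell, against 2.4% of all genes tested there. These were the 4 described next and Lef1 and Ptch1. Edar, the ectodysplasin receptor of placodes, was at 38.6 and 41.4 CPM in Ctrl and 9.43 and 7.66 CPM in TKO (log2 change -2.21, SE 0.26, adjusted p = 0.010). Wnt10a, a Wnt ligand, was at 42.4 and 46.4 CPM in Ctrl and 16.4 and 16.6 CPM in TKO. Lgr6, a receptor of follicle stem cells, was at 32.5 and 51.0 CPM in Ctrl and 6.94 and 5.96 CPM in TKO, and Sostdc1, a BMP and Wnt inhibitor, at 107 and 142 CPM in Ctrl and 29.8 and 47.7 CPM in TKO. The summed level of the list was 904 and 1248 CPM in Ctrl and 380 and 532 CPM in TKO. Follicle cells with some Krt1 and Krt10 would enter the window by its rule, and their part in this difference and in the basal list was not tested.

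**Figure D4:**
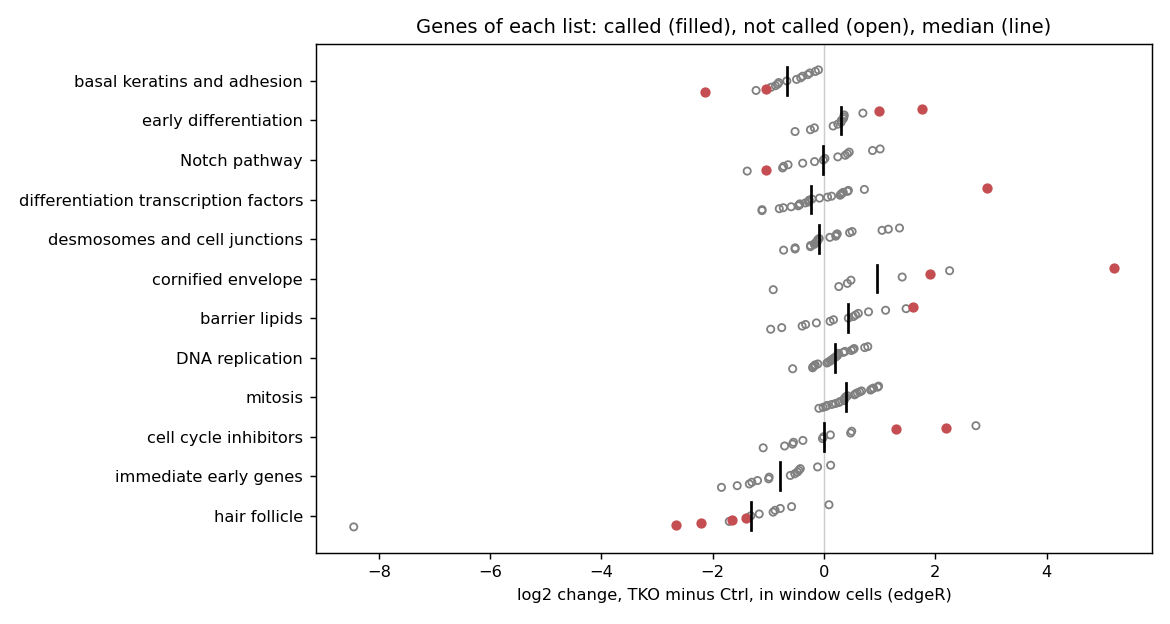
Log2 change (TKO against Ctrl) of each tested gene of 12 gene lists in the window; filled points passed the test, and the line of each list is its median. The basal list lies wholly below 0 and the hair follicle list mostly so (median -1.32), whereas the barrier lipid, cornified envelope and mitosis lists have medians above 0 with few filled points.

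Markers of other cell types were low but not absent. Fibroblast genes summed to 386 and 336 CPM in Ctrl and 516 and 114 CPM in TKO, mostly from Dcn in all but TKO replicate 1, and 22 window cells held at least 10 UMIs per 10000 of the list. Immune genes summed to 5.51 and 15.5 CPM in Ctrl and 6.45 and 187 CPM in TKO, and melanocyte genes to 9.37 and 13.8 CPM in Ctrl and 14.4 and 67.3 CPM in TKO, with Tyrp1 at 0 in all. Merkel cell genes summed to 172 and 18.8 CPM in Ctrl and 3.97 and 4.26 CPM in TKO, with Krt20 at 0 in all, and endothelial genes to at most 2.51 CPM, with Cdh5, Kdr and Cldn5 at 0. Periderm genes summed to 20.4 and 4.18 CPM in Ctrl and 88.8 and 352 CPM in TKO, mostly Krt6a in TKO. Erythroid genes summed to 20.1 to 25.3 CPM in 3 libraries and to 4238 CPM in TKO replicate 2, where 2 cells carried them. Of the genes tested on these lists, 1 melanocyte gene (Mlana) and 1 periderm gene (Krt6a) passed with edgeR, while DESeq2 also called Dcn, Piezo2 and Hba-a1. Without cells marked by fibroblast, immune, melanocyte or endothelial genes, 332 genes passed the test.

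Of the 3 targeted genes none passed by edgeR or DESeq2, and 1 had an unadjusted p under 0.05. Setdb1 was at 87.6 and 63.6 CPM in Ctrl and 47.1 and 47.3 CPM in TKO (log2 change -0.66, SE 0.21, adjusted p = 0.15), Suv39h1 at 26.2 and 20.9 CPM in Ctrl and 22.3 and 15.3 CPM in TKO, and Suv39h2, null in all embryos, at 12.9 and 13.4 CPM in Ctrl and 18.9 and 14.9 CPM in TKO. A 3' assay counts transcripts whose floxed exons are missing, so these levels do not check the deletion.

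The largest rises were of genes with almost no UMIs in Ctrl window cells, which a ranking by log2 change favours. Gria3, an AMPA-type glutamate receptor subunit (chromosome X, 40489476 to 40767490, GRCm39), counted 0 and 0 UMIs in Ctrl against 120 and 160 in TKO, in 23 and 26 cells, and was at least 129-fold higher in TKO when Ctrl was set at the limit of 3 UMIs over both libraries. The study lists Gria3, with Tdrd1 and Cd28, as non-lineage genes on the basis of these samples, so their rise here is not independent: Tdrd1, a germline piRNA factor, was at 10.5 and 5.44 CPM in Ctrl and 42.2 and 43.4 CPM in TKO, and Cd28, a T cell co-receptor that DESeq2 did not call, at 0 and 2.09 CPM in Ctrl and 15.9 and 43.4 CPM in TKO. Fut9, a fucosyltransferase, had 0 UMIs in Ctrl and 21 and 72 in TKO (at least 42.8-fold). The transcript listed as ENSMUSG00000120763 rose at least 43.7-fold, Gm36551 at least 39.5-fold, Tnxa at least 24.4-fold and D7Ertd128e at least 21.6-fold, each from 0 UMIs in both Ctrl libraries.

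The other 6 of the 12 most raised genes had 1 to 3 UMIs in Ctrl. Krt6a, an inducible keratin of stressed and companion-layer cells (chromosome 15, 101598345 to 101602742), counted 0 and 3 UMIs in Ctrl against 116 and 797 in TKO, a ratio of 420 with a 95% counting interval of 143 to 2039. It was found in 8 and 18 TKO cells, and 2 cells held 88.8% and 51.2% of its UMIs. Its call was lost in the Krt5/Krt14-high members (adjusted p = 0.051). The predicted transcript Gm42653 (chromosome 5, 70718608 to 70721446) counted 2 and 1 UMIs in Ctrl against 690 and 381 in TKO (ratio 492, interval 168 to 2392) and was found in 39 and 54 TKO cells. The noncoding gene 1700030N03Rik (chromosome 19, 3103071 to 3255592) counted 1 and 1 UMIs in Ctrl against 517 and 609 in TKO, but 2 cells held 62.5% and 59.4% of these. Col28a1, a collagen gene, counted 0 and 1 UMIs in Ctrl against 155 and 814 in TKO, Gm41804 had 0 and 1 against 185 and 145, and Npffr1, a neuropeptide receptor gene, had 0 and 1 against 53 and 103.

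These transcripts were spread unevenly over the TKO window cells. At 5000 UMIs per cell, the median TKO cell held UMIs of 2 of the 12 genes, and since the genes were chosen for their rise in the window this is a description only. In TKO 15.1% and 21.9% of cells held none and 28.3% and 34.2% held 3 or more. In Ctrl none was seen in 100% and 97.2% of cells. The 12 genes as a set were not particular to the window. In TKO 30.1% and 31.1% of low cells and 34.6% and 26.7% of high cells held none of them.

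Among the 12 most lowered genes, Ror1, a Wnt5a receptor tyrosine kinase (chromosome 4, 99952988 to 100301990), was the most abundant. It was at 485 and 374 CPM in Ctrl and 48.6 and 44.7 CPM in TKO (log2 change -3.18, SE 0.20, adjusted p = 0.0013) and was found in 130 and 91 Ctrl cells and in 15 and 21 TKO cells. Tspear, a secreted protein of skin appendages and teeth (chromosome 10, 77522403 to 77722855), was at 345 and 207 CPM in Ctrl and 23.8 and 37.5 CPM in TKO (log2 change -3.14, SE 0.32, adjusted p = 0.0056). Grik4, a kainate receptor subunit, counted 272 and 111 UMIs in Ctrl against 9 and 7 in TKO (log2 change -4.01, SE 0.37, adjusted p = 0.0044). Ror1 kept its call in all 18 alternatives, whereas Tspear (adjusted p = 0.066) and Grik4 (adjusted p = 0.060) lost theirs when Ctrl replicate 1 was left out.

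The remaining lowered genes rested on fewer cells. Sorcs1, a sorting receptor, counted 46 and 19 UMIs in Ctrl and none in either TKO library (at least 15.7-fold lower), with 67.4% and 47.4% of its UMIs in 2 cells. Tox3 counted 62 and 63 UMIs in Ctrl against 2 and 0 in TKO (ratio 45.3, interval 12.3 to 378). Zfpm2, Skint1, Cdh4, Adamts9, Gm2164, Zfp804b and the chemokine gene Cxcl1 completed the 12, with Ctrl counts from 22 to 427 and TKO counts from 0 to 32. Zfpm2 and Skint1 were too low to be tested in the Krt5/Krt14-high members. Of the 24 genes named here as most raised or lowered, 12 overlap another gene on the same strand, where reads of the 2 genes may have been assigned to either.

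**Figure D5:**
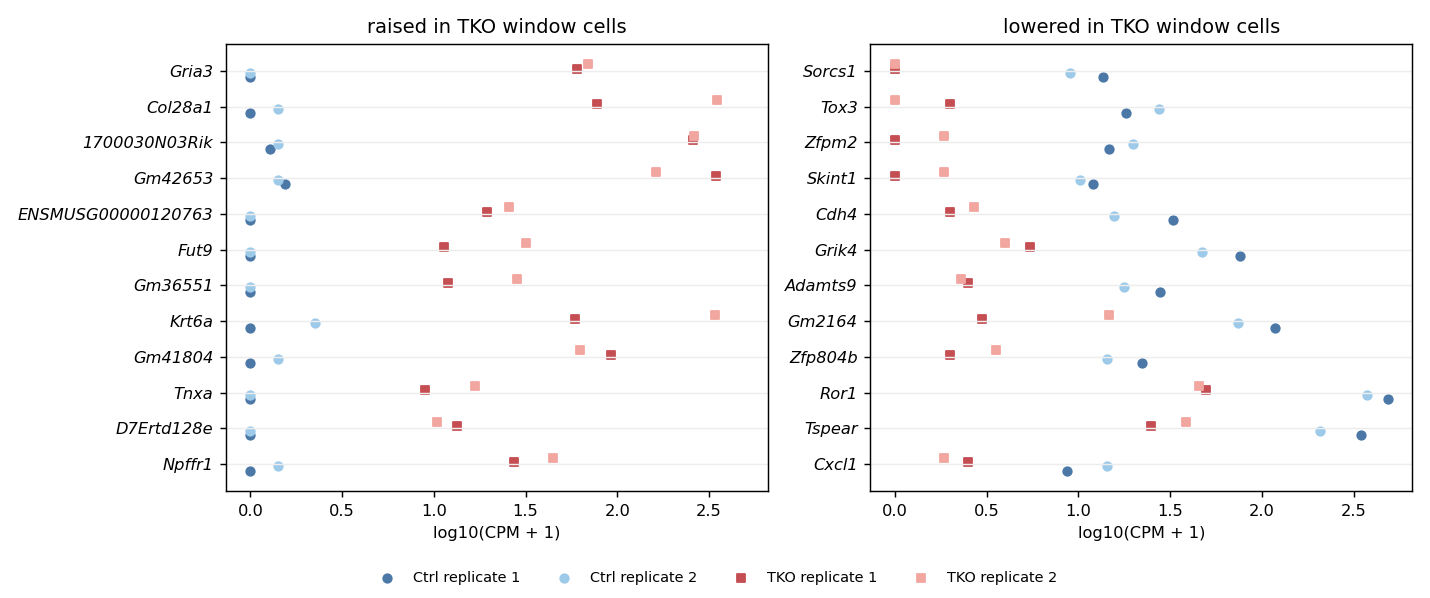
Levels of the 12 most raised and 12 most lowered genes in the window, as log10(CPM + 1), 1 point per library with Ctrl and TKO in different colours. In each of the 24 genes both TKO points lie on 1 side of both Ctrl points, as the choice of genes requires, and most raised genes lie at or near 0 in Ctrl.

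The change between genotypes was then compared with that in the neighbouring cells of the same libraries by an interaction test with library as a block. Against low cells 127 of 17638 genes (0.72%) differed, and against high cells 19 of 13081 (0.145%). Leaving out Ctrl replicate 1 brought these counts to 81 and 4, Ctrl replicate 2 to 266 and 118, TKO replicate 1 to 309 and 155, and TKO replicate 2 to 301 and 206. Of the 24 most changed genes 7 differed from low cells and 1, Tspear, from high cells. These genes were chosen for their change in the window, which favours a larger change there, so the counts are a description only. Ror1 fell further in the window than in low cells, by 0.99 on the log2 scale (adjusted p = 0.022), where it was at 193 and 211 CPM in Ctrl and 54.5 and 38.2 CPM in TKO. Tspear fell further than in low cells by 1.28 (adjusted p = 0.0095) and than in high cells by 1.19 (adjusted p = 0.046). Grik4 fell further than in low cells by 1.85 (adjusted p = 0.040) and Zfp804b by 2.55 (adjusted p = 0.014), as did Tox3 and Cxcl1. Among the list genes, the hair follicle genes Edar, Wnt10a, Lgr6 and Sostdc1 fell further than in low cells by 1.08 to 2.04, and Sbsn rose further than in both low and high cells (differences of 1.35 and 1.05, adjusted p = 0.0080 and 0.025). Krt6a rose further than in low cells, with a difference of 4.41 (adjusted p = 0.013), and was at 186 and 293 CPM in TKO high cells. Hspb1, a small heat shock protein of differentiating keratinocytes, was at 288 and 400 CPM in Ctrl and 1802 and 751 CPM in TKO window cells but at 2421 and 1926 CPM in Ctrl and 3617 and 1826 CPM in TKO high cells, a difference of 1.62 between the changes. Ptprz1, a receptor phosphatase, counted 348 and 184 UMIs in Ctrl against 34 and 50 in TKO window cells, while in high cells it was at 37.8 and 36.1 CPM in Ctrl and 21.4 and 39.3 CPM in TKO, a difference of -1.80 (adjusted p = 0.0026).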

How the data were processed

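The deposited matrices hold raw UMI counts per gene and barcode of 4 single-cell libraries, which the authors made with Cell Ranger against GRCm39 and did not normalize. The members, gene lists and tests were chosen with earlier results of these data known. Cells were filtered on 2000 genes and 10% mitochondrial UMIs, the window of 20 to under 100 Krt1 and Krt10 UMIs per 10000 was applied, and counts were summed per library, into totals of 3630033 and 2390491 UMIs for Ctrl and of 2015913 and 2349016 for TKO. Levels are CPM, counts per 1000000 UMIs of these sums. TKO was compared with Ctrl by edgeR 4.0.16 (R 4.3.3; TMM factors, filterByExpr, quasi-likelihood test, threshold 0.05 on p adjusted after Benjamini and Hochberg), checked on simulated data. Interaction fits had library and cell window as terms. Shares were compared by an exact permutation test over libraries in Python 3.11.15 (numpy 2.4.6, scipy 1.17.1), where 2 against 2 cannot go below p = 0.333, after cells were thinned to 5000 UMIs where detection depends on depth. The replicates are different embryos and, as the methods include both sexes in each group, also differ in sex, so p-values measure the spread between these 4 libraries only.

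Named genes were the 12 largest changes in each direction among genes past the threshold, with a mean of at least 5 CPM and no overlap of the groups, the 5 largest interaction differences in each direction, and the list genes described. Coordinates come from the GENCODE annotation of GRCm39, which matched 56236 of 56980 gene identifiers. Doublets were scored with Scrublet in scanpy 1.11.5; its automatic limit marked 0, 0, 2 and 2 window cells, so the cells with the highest scores were left out as an alternative, not in the main values. No barcode was in the window of more than 1 library. Other alternatives were DESeq2 1.42.0, upper-quartile factors, no expression filter, other windows, other cell filters and depths, a replicate block, and leaving out each library or marked cells. Sex-linked genes and a few other items are not reported here.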

Additional observations from a re-analysis of the deposited data

Results flagged for a closer look

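The genes below were singled out because the change between genotypes in the window differed from that in low or high cells by the interaction test (edgeR), as those among the 5 largest differences in each direction that are reported here. Values are log2 differences between the changes.

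Against low cells, the haemoglobin genes Hba-a1 (6.30), Hba-a2 (6.22), Hbb-bt (6.12) and Hbb-bs (5.35) had positive differences. In the window itself Hba-a1 and Hbb-bs were tested and did not pass with edgeR, while DESeq2 called Hba-a1. Hba-a2 and Hbb-bt did not enter the test of the window. Hbb-bs had 45, 30, 10 and 6271 UMIs, and Hba-a1 9, 7, 33 and 1672, with TKO replicate 2 far above the rest, where 2 cells held 98.2% to 99.6% of that library's UMIs of these genes. These 2 cells held 582 and 961 UMIs per 10000 of erythroid genes together with Krt1 and Krt10 inside the window. S100a9 (5.48), a neutrophil and stress protein, had 1, 3, 2 and 25 UMIs, most of those in TKO replicate 2 from 2 cells. The hair follicle genes Tafa1 (-10.93) and Pthlh (-9.90) had negative differences. They did not pass with edgeR in the window or in low cells, though DESeq2 called Pthlh in the window. Tafa1 was at 28 and 74 UMIs and Pthlh at 21 and 69 UMIs in Ctrl and both at 0 in TKO, nearly all of them from 2 cells in each Ctrl library. Tagln (-6.44), a smooth muscle and cytoskeletal gene, had 4, 0, 4 and 0 UMIs in the window and did not fall there: in low cells it rose from 0.246 and 0.133 CPM in Ctrl to 42.4 and 13.6 CPM in TKO. Tox3 (-3.95) and Cxcl1 (-2.99), which fell in the window, also had negative differences.

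Against high cells, Hbb-bt (10.03), Hba-a2 (9.13) and Hbb-bs (8.98) also differed, and there Ctrl replicate 1 stood apart among the high cells, for example with Hbb-bs at 140 CPM against 6.28 to 17.1 CPM in the other libraries. Ly6g6c (2.32) had 45, 14, 124 and 42 UMIs, of which 2 cells held 70.2% in TKO replicate 1, and Hspb1 (1.62) was higher in both TKO libraries. Dpep1 (-4.90), a membrane dipeptidase, was at 4.41 and 3.35 CPM in Ctrl and 7.94 and 14.9 CPM in TKO window cells and at 0.503 and 0.591 CPM in Ctrl and 59.2 and 44.7 CPM in TKO high cells. Ptprz1 (-1.80), Map2 (-1.51) and Krt16 (-1.41) also had negative differences, of which Ptprz1 alone passed the test in the window, with Krt16 at 45.2, 84.9, 32.7 and 616 CPM in the window. The part of single cells in these differences was not tested.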

How the results depend on the processing

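The change of Krt5 kept its direction and stayed short of the threshold in all 18 alternatives, from -0.50 to -0.03 when 1 library was left out. Krt14 turned to 0.05 without Ctrl replicate 2 and to 0.27 without TKO replicate 1, and passed the test at -0.74 without TKO replicate 2. The share of kept cells in the window turned to 3.08 points over cells with Krt1 and Krt10 of at least 20. The count of changed genes, 296, stayed within 1.5 times in 8 alternatives and was 1369 with no expression filter, 119 after thinning each cell, 106 without cells holding hair follicle genes, 180 with at least 3000 genes per cell, 536 with under 5% mitochondrial UMIs, 537 in the Krt5/Krt14-high members (added after the data were seen) and 5 to 825 with 1 library left out. The interaction count against low cells, 127, was 450 with no expression filter, 72 after thinning, 200 without high doublet scores, 38 without cells holding hair follicle genes, 262 in the Krt5/Krt14-high members and 81 to 309 with 1 library left out. That against high cells, 19, was 207, 49 and 9 with no expression filter, without high doublet scores and without hair follicle genes, 169 without cells of other types, 62 in the Krt5/Krt14-high members and 4 to 206 with 1 library left out. Where an arm was left with 1 library, that library was assumed to vary like the others. With the replicate block 415 genes passed, but the numbers share only a number, since deviations of same-numbered libraries correlated at -0.063. The cause of these shifts was not tested. Of the 24 genes named as most changed, 21 lost their call in at least 1 alternative, 21 of them without Ctrl replicate 1 and 13 without Ctrl replicate 2; Gria3, 1700030N03Rik and Ror1 kept theirs in all 18. DESeq2 called 397 genes. With 2 embryos per genotype and 53 to 155 cells per library, small changes of low genes were not detectable at this depth.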
